A study of Mus musculus with 5 samples.

Results

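The genes described here are 10 markers of the tissue that lies next to the luminal layer of the mouse uterus, out of 23420 genes in the deposited count table. They were chosen by name: Hand2, Hoxa10, Hoxa11, Pdgfra and Col1a1 as markers of endometrial stroma, and Acta2, Myh11, Cnn1, Actg2 and Des as markers of smooth muscle. No measured value entered the choice, although it was made with earlier results of these libraries known.

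The endometrial stroma is the fibroblast-rich connective tissue beneath the uterine epithelium. Under progesterone it conditions the epithelium for attachment, and once an embryo attaches it differentiates into decidua, beginning next to the embryo. Smooth muscle forms the myometrium further out and the walls of vessels, and its cells are filled with a contractile apparatus of dedicated actins, myosin and calponin. Several of these markers are shared: Acta2 is also made by pericytes and activated fibroblasts, and desmin is known from decidual cells of rodents as well as from muscle.

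RNA-seq was performed on the luminal layer of uteri from pregnant wild-type C57BL/6N females, with the day of the vaginal plug taken as day 1. Each of 5 conditions gave 1 library: day 3 morning, day 4 in the morning and in the evening, and day 5 morning at a pair of places, at a distance from the attached embryo and surrounding it. The day 5 samples are also named Mpole and Ampole, for the mesometrial and anti-mesometrial sides of the uterus in the study's abbreviations, so side and distance from the embryo cannot be told apart. The layer was cut out by laser microdissection, so the tissue in each library depends on where the cut ran, and pooling of several samples per library is described for other luminal epithelium libraries of the study but not for these 5. With 1 library per condition there is no spread between replicates, so no p-values are given, each change is described by its size, and intervals cover counting error only. Chicago blue dye, used to show the implantation sites, is named for the day 5 females alone, so the dye and day 5 cannot be told apart.

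The libraries held between 15334674 and 19529491 counts. Rn45s, the precursor of ribosomal RNA, and Lars2 together took between 15.0% and 23.2% of them. Levels are given as CPM, the usual scaling of counts to 1 common library size, here with sizes adjusted by the trimmed mean of M values (TMM), and comparisons between genes as RPKM, the CPM divided by the gene's length in kilobases. The 8 keratin, claudin and adhesion genes of epithelium summed to between 3538 and 7129 CPM in every library, so epithelial markers were abundant throughout, against 106.1 to 286.2 CPM for the 5 stromal markers and 7.95 to 383.5 CPM for the 5 smooth muscle markers. The stromal markers amounted to between 1.19% and 2.92% of the summed epithelial RPKM, and the smooth muscle markers to between 0.133% and 4.61%. In bulk libraries like these, fewer cells of a type and less RNA per cell cannot be told apart.

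The library around the attached embryo held the highest CPM of 8 of the 10 markers, and the exceptions were Hoxa10 and Hoxa11, which were highest on day 4 evening (with scaling by library totals, Hoxa10 was highest away from the embryo and so was Pdgfra). Among the 12915 genes whose mean reached 1 CPM (the tested genes), 28.9% were highest around the embryo. Hand2 was 6.35-fold and Des 17.9-fold higher there than away from the embryo on the same morning, while Hoxa10 and Hoxa11 were lower. The markers therefore did not keep 1 ratio to each other from library to library, within either group.

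**Figure D1:**
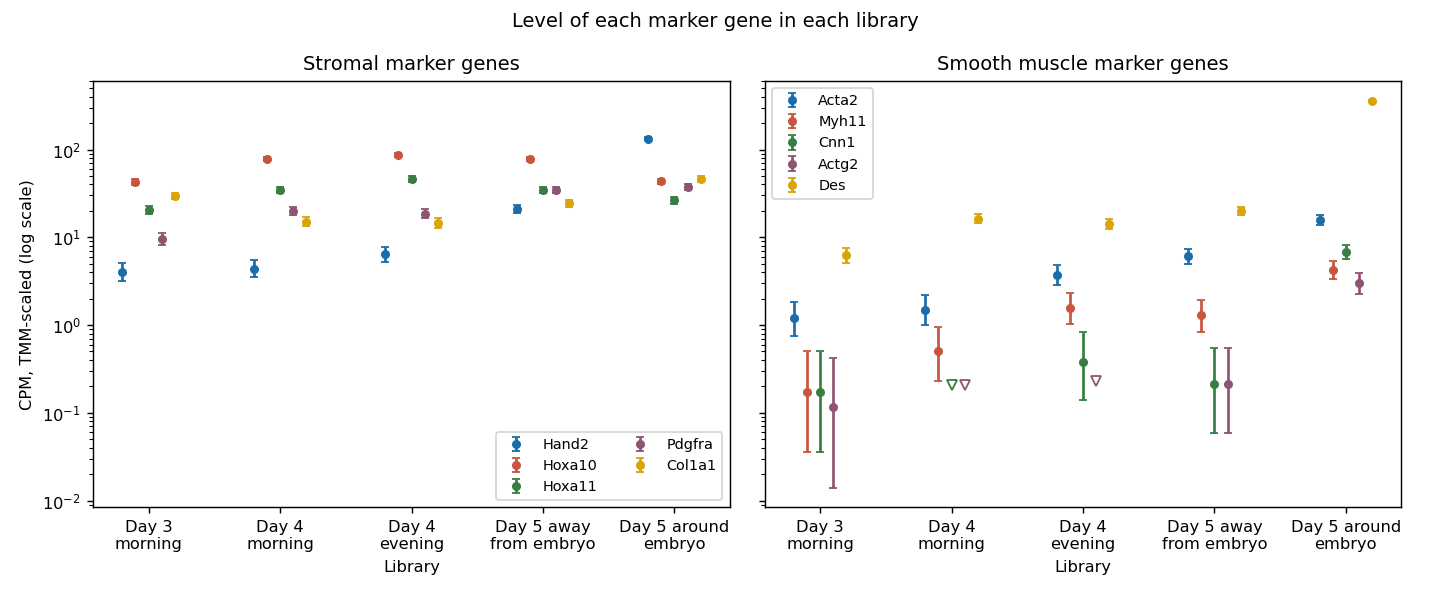
Points show the CPM of each marker (log scale, TMM-scaled) in each of the 5 libraries, with exact Poisson 95% intervals of the count as bars and open triangles marking the upper limit where no read was counted. Hand2 climbs from the bottom of the stromal panel to its top, and Des stands above every other smooth muscle marker in all 5 libraries.

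Hand2, a basic helix-loop-helix factor that progesterone induces in stroma and that holds back growth factor signals to the epithelium, lies on chromosome 8 (57320983 to 57324517, plus strand, GRCm38/mm10, protein coding). Day 3 morning gave 70 counts of Hand2, day 4 gave 79 in the morning and 102 in the evening, and day 5 gave 389 away from the embryo against 2282 around it. Its CPM was 4.03, 4.40, 6.45, 20.9 and 132.5. The first 3 libraries lay close together, the day 5 library away from the embryo above them, and the one around the embryo far above all others. Against day 4 evening Hand2 was 3.24-fold higher away from the embryo (log2 1.68, 95% interval 1.38 to 2.02) and 20.6-fold higher around it (4.34, 4.07 to 4.66). Around against away, the log2 change was 2.66 (2.51 to 2.83). By RPKM Hand2 stood above 22.3% of the tested genes on day 3 and above 89.1% around the embryo.

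Hoxa10 and Hoxa11, homeobox factors of the uterine stroma that are required for decidualization, lie 1251 bases apart on the minus strand of chromosome 6 (52231197 to 52240854 and 52242106 to 52245767). Hoxa10 was counted 738, 1385 and 1371 times on day 3 morning, day 4 morning and day 4 evening, then 1457 times away from the embryo and 747 times around it. Hoxa11 followed the same order of sampling with 354, 619, 726, 644 and 455 counts. Both had their lower CPM on day 3 and around the embryo, with the other 3 libraries above. For Hoxa10 these low values had overlapping intervals (39.5 to 45.7 CPM on day 3, 40.3 to 46.6 around the embryo), and with library totals their order turned (48.1 and 39.0 CPM). Around against away from the embryo Hoxa10 had a log2 change of -0.85 (-0.98 to -0.72) and Hoxa11 of -0.38 (-0.56 to -0.21), the opposite direction to Hand2. Against day 4 evening Hoxa10 was 1.998-fold lower around the embryo, just short of 2-fold, and past it when libraries were scaled by their totals. Hoxa10 kept a narrow range over the series, 2.04-fold from its lowest to its highest CPM, and Hoxa11 2.25-fold, against 32.9-fold for Hand2 and 56.3-fold for Des.

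The reading of Hoxa11 is uncertain, since its antisense gene Hoxa11as shares 525 exon bases with it. The kit does not mark strand, so reads from these bases cannot be assigned to either gene. Hoxa11as was itself counted 263, 511, 471, 593 and 183 times from day 3 to the library around the embryo. The count of Hoxa11 per count of Hoxa10 stayed between 0.442 and 0.609 in all 5 libraries. The highest of these was around the embryo (interval 0.541 to 0.685), without overlap with the interval away from it (0.402 to 0.485). Hand2 per Hoxa10 was 0.0949 on day 3, 0.0570 and 0.0744 on day 4 (morning, evening), 0.267 away from the embryo and finally 3.06 around it, where its interval ran from 2.81 to 3.32. The proportion of the neighbouring Hox genes thus varied far less than that of Hand2 to Hoxa10.

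Pdgfra, the alpha receptor for platelet-derived growth factor and a fibroblast surface marker on chromosome 5 (75152291 to 75198204, plus strand), was counted 167 times on day 3 morning and 355 and 294 times on day 4 morning and evening. On day 5 it had 647 counts at the distant site and 649 next to the embryo, so the pair of day 5 libraries lay level and above the others. Around against away, its log2 change was 0.12 (-0.04 to 0.28), an interval that includes 0, and with library totals it was -0.19. Pdgfra was 2.06-fold higher on day 4 morning than on day 3 and 2.03-fold higher around the embryo than on day 4 evening. Neither passed 2-fold with library totals, where the log2 changes were 0.73 and 0.93.

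Col1a1, which encodes the alpha 1 chain of type I collagen on chromosome 11 (94936270 to 94951856, plus strand), was counted 514, 270 and 229 times up to day 4 evening, then 458 times away from the embryo and 796 times around it. It was lowest on day 4, in both libraries of that day. Around the embryo it was 3.19-fold higher than on day 4 evening (log2 1.67, 1.46 to 1.89) and 1.88-fold higher than away from the embryo. Type I collagen also contains the chain encoded by Col1a2, a gene chosen for mention after its values were seen. Col1a2 had 1272, 892, 727, 843 and 263 counts, and was 2.96-fold lower around than away from the embryo (log2 -1.56, -1.77 to -1.36). The genes of both collagen I chains thus differed in opposite directions between the day 5 libraries.

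Desmin, encoded by Des, is the intermediate filament protein of muscle, and the gene lies on chromosome 1 (75360344 to 75367715, plus strand). Day 3 morning gave 109 counts, day 4 gave 293 in the morning and 223 in the evening, and day 5 gave 369 away from the embryo against 6090 around it. The CPM values were 6.28, 16.3, 14.1, 19.8 and 353.6. Day 3 was lowest, the next 3 libraries lay within a narrow band, and the library around the embryo stood apart. Des was 2.60-fold higher on day 4 morning than on day 3 (log2 1.36, 1.06 to 1.71). Around the embryo it was 25.1-fold higher than on day 4 evening (4.64, 4.46 to 4.85) and 17.9-fold higher than away from the embryo (4.15, 4.01 to 4.32). Of the 12915 tested genes, 226 had a larger positive log2 change between the day 5 libraries. Its RPKM stood above 30.6% of the tested genes on day 3 and above 96.0% around the embryo, where it was 164.5 against 59.3 for Hand2.

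Acta2, alpha smooth muscle actin, lies on chromosome 19 (34240336 to 34255373, minus strand). It was counted 21, 27 and 59 times on day 3 morning, day 4 morning and day 4 evening, then 113 times away from the embryo and 272 times around it. The values on day 3 and day 4 morning could not be told apart by their counting intervals, and each later library was higher. It was 2.48-fold higher on day 4 evening than that morning (log2 1.25, 0.63 to 2.02). Around against away from the embryo it was 2.61-fold higher (1.37, 1.06 to 1.71), a far smaller step than that of Des.

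Myh11, the smooth muscle myosin heavy chain on chromosome 16 (14194527 to 14291408, minus strand), was counted 3, 9, 25, 24 and 73 times in the same order. It was 3.29-fold higher around than away from the embryo (log2 1.64, 1.04 to 2.45), and its day 4 evening and day 5 away counts could not be told apart. From day 3 to day 4 morning the ratio was 2.90-fold with a log2 interval from -0.47 to 4.06, since it rests on 3 counts. Even around the embryo its RPKM was only 0.639, above 11.7% of the tested genes.

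Cnn1 encodes calponin 1, which binds actin in differentiated smooth muscle, and lies on chromosome 9 (22099253 to 22109221, plus strand). It had 3, 0, 6 and 4 counts in the first 4 libraries and 118 around the embryo. The span of the microRNA gene Mir680-2 covers it on the other strand, with 0 shared exon bases and at most 3 counts of its own. Cnn1 was 32.0-fold higher around than away from the embryo, but on 4 counts (log2 4.40, 3.60 to 6.90). For the 0 on day 4 morning, the floor of 3 counts of that library is 0.167 CPM. The exact Poisson upper limit drawn in the plot of levels is higher, at 0.205 CPM.

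Actg2, the gamma actin of visceral smooth muscle, lies on chromosome 6 (83512909 to 83536251, minus strand). It had 2, 0, 0 and 4 counts before 52 around the embryo, which was 14.1-fold higher than away from it (log2 3.25, 2.37 to 5.74). Against the 0 of day 4 evening, set to the floor of 3 counts of that library, it was 15.9-fold higher. The exact counting interval of that log2 ratio started at 3.64, which is below this floor ratio. With a mean of 0.67 CPM it was the 1 marker of the 10 below the filter, and Cnn1 and Myh11 passed largely through the library around the embryo.

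The actin genes are close paralogs, and multiply mapped reads could be split between them. Of the 1986 windows of 50 bases in the Acta2 transcript, 7 (0.353%) also occurred in Actg1, and none in Acta1, Actb, Actc1 or Actg2. None of the 1284 windows of Actg2 occurred in the others. Acta1, the skeletal muscle actin, had 0, 0, 2 and 2 counts and then 45 around the embryo, and Actc1, the cardiac actin, had counts in the library away from the embryo alone (6). The cytoplasmic actins Actb and Actg1 went from 32201 to 57989 and from 14895 to 27303 counts between the libraries away from and around the embryo.

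**Figure D2:**
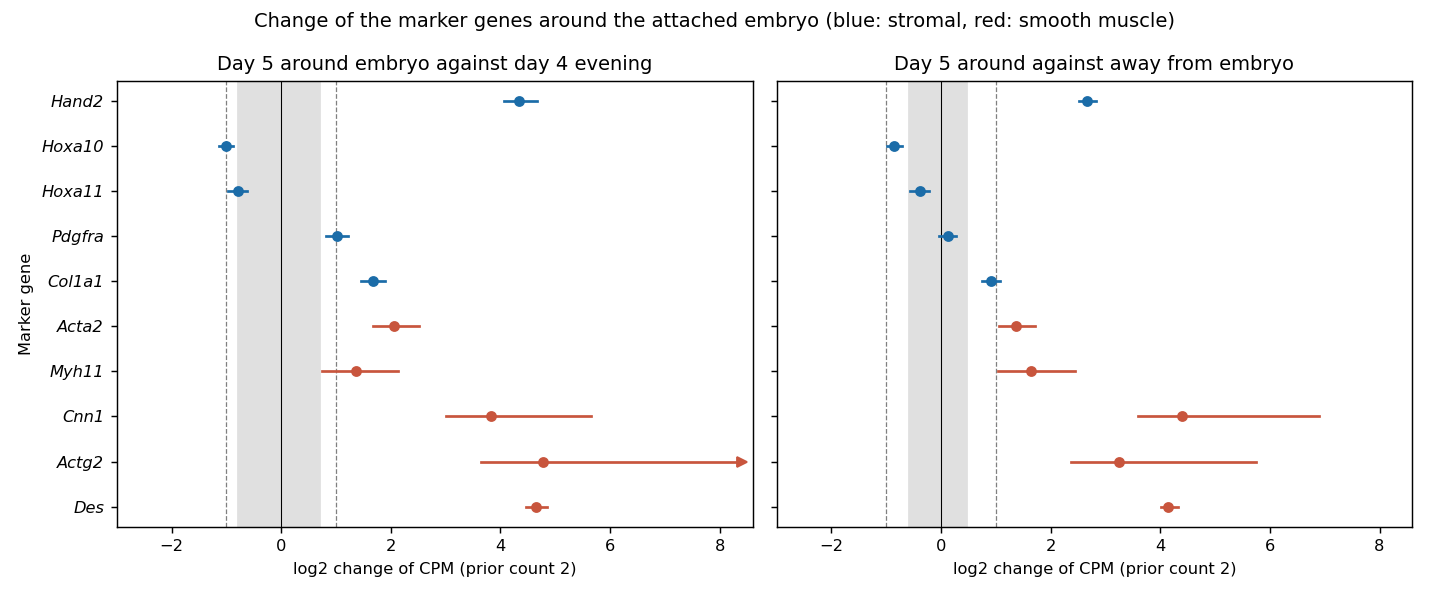
Points give the log2 change of CPM (prior count of 2) for each marker in the library around the embryo, against day 4 evening on the left and against the library away from the embryo on the right, with exact 95% counting intervals as lines and an arrowhead where an interval has no upper end. Grey bands hold the middle 50% of all 12915 tested genes and dashed lines mark 2-fold. All 5 smooth muscle markers lie right of the dashed line in both panels, and Hoxa10 and Hoxa11 lie left of 0.

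Upstream sequence was taken from RefSeq (GRCm38.p6), where 7 of the 10 markers had an entry, with 8 start sites in all because Hoxa10 has a pair. The 250 bases before each start were searched on both strands. The CArG box, the motif that serum response factor binds in many genes of the contractile apparatus, had no exact match in any of the 8, and matched 1.47% of all 32851 promoters. With 1 inner base allowed to differ, it matched 7.24% of all promoters, and of the markers Acta2 alone, at 84 and 34 bases before the start. The 3 sequences are shown because Acta2 carries these matches (in capitals) and because Des and Hand2 showed the steepest changes that rest on over 100 counts in each library compared.
Acta2 (chr19:34255374-34255623, minus strand): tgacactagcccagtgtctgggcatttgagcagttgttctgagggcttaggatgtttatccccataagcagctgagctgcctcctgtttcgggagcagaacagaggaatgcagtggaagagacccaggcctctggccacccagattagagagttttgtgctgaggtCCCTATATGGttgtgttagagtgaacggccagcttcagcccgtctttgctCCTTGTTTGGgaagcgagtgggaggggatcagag
Des (chr1:75360042-75360291, plus strand): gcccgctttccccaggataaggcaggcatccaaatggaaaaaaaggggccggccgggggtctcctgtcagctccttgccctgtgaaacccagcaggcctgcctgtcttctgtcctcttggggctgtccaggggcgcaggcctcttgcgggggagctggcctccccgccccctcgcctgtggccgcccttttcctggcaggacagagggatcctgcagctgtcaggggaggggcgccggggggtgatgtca
Hand2 (chr8:57320733-57320982, plus strand): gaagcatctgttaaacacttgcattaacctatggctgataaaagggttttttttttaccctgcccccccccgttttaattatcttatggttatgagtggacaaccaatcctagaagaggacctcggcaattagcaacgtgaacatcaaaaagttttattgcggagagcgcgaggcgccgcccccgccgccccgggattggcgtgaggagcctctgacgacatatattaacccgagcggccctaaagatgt
The letters TTCNNNGAA, a motif of the Stat factors, occurred in none of the 8 and in 7.02% of all promoters. TATAAA occurred upstream of 1 start of Hoxa10 and in 12.4% of all promoters. A match is a description of letters and no evidence of binding.

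A change beyond 2-fold in log2 CPM was counted for each of the 5 comparisons, over all 10 markers, and the share of all tested genes past the same limit is given beside it. From day 3 to day 4 morning Pdgfra, Myh11 and Des were higher (3 of 10, against 7.47% of tested genes). Cnn1 and Actg2 were lower (2 of 10, against 11.5%), at 3 counts against 0 and 2 counts against 0, both at or under the floor. From day 4 morning to evening Acta2, Myh11 and Cnn1 were higher (3 of 10, against 7.21%) and 0 lower (6.95%). Cnn1 went from 0 to 6 counts there.

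Away from the embryo on day 5, Hand2 and Actg2 were higher than on day 4 evening (2 of 10, against 12.9%), Actg2 on 4 counts against 0, and 0 were lower (12.7%). Around the embryo, 8 of 10 were higher than on day 4 evening, namely Hand2, Pdgfra, Col1a1 and all 5 smooth muscle markers, against 19.1% of tested genes. None was lower, against 20.7%. Around against away from the embryo, 6 of 10 were higher, namely Hand2 and all 5 smooth muscle markers, against 13.4%, and 0 were lower, against 15%. In both of these counts Actg2 was below the filter, and Cnn1 and Myh11 passed it largely through the library around the embryo. The 3 comparisons on day 5 share libraries, so their counts are not independent.

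The median log2 change around against away from the embryo was 0.12 over the 5 stromal markers and 3.25 over the 5 smooth muscle markers, with -0.05 over all tested genes. The smooth muscle median is the value of Actg2, which was below the filter and had 52 counts against 4. The middle 50% of tested genes lay between -0.59 and 0.47. Pdgfra and Hoxa11 were inside that range, Hoxa10 was below it, and Hand2, Col1a1 and each smooth muscle marker were above it.

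Because 1 gene can carry a group's sum, the make-up of each group was examined. Hand2 supplied 3.80%, 2.92% and 3.75% of the stromal markers' counts up to day 4 evening, then 10.8% away from the attached embryo but 46.3% around it. Hoxa10 supplied 51.1% on day 4 morning and 15.2% around the embryo. With Hand2 left out, the other 4 stromal markers summed to 102.1, 146.4, 165.6, 171.9 and 153.7 CPM, a ratio of 0.894 (0.849 to 0.942) around against away. With Hand2 included this ratio was 1.49.

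Des supplied 79.0%, 89.1%, 71.3% and 71.8% of the smooth muscle markers' counts in the first 4 libraries and 92.2% around the embryo. The other 4 smooth muscle markers summed to 1.67, 2.01, 5.69, 7.77 and 29.9 CPM, in the order of sampling. Their sum was 3.85-fold higher around than away from the embryo (3.19 to 4.66), against 13.9-fold with Des. Des per Acta2 was 5.19, 10.9, 3.78 and 3.27 in the first 4 libraries and 22.4 around the embryo (19.8 to 25.4). The proportion of desmin to smooth muscle actin transcripts was thus highest around the embryo, with no overlap of its interval with the others.

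**Figure D3:**
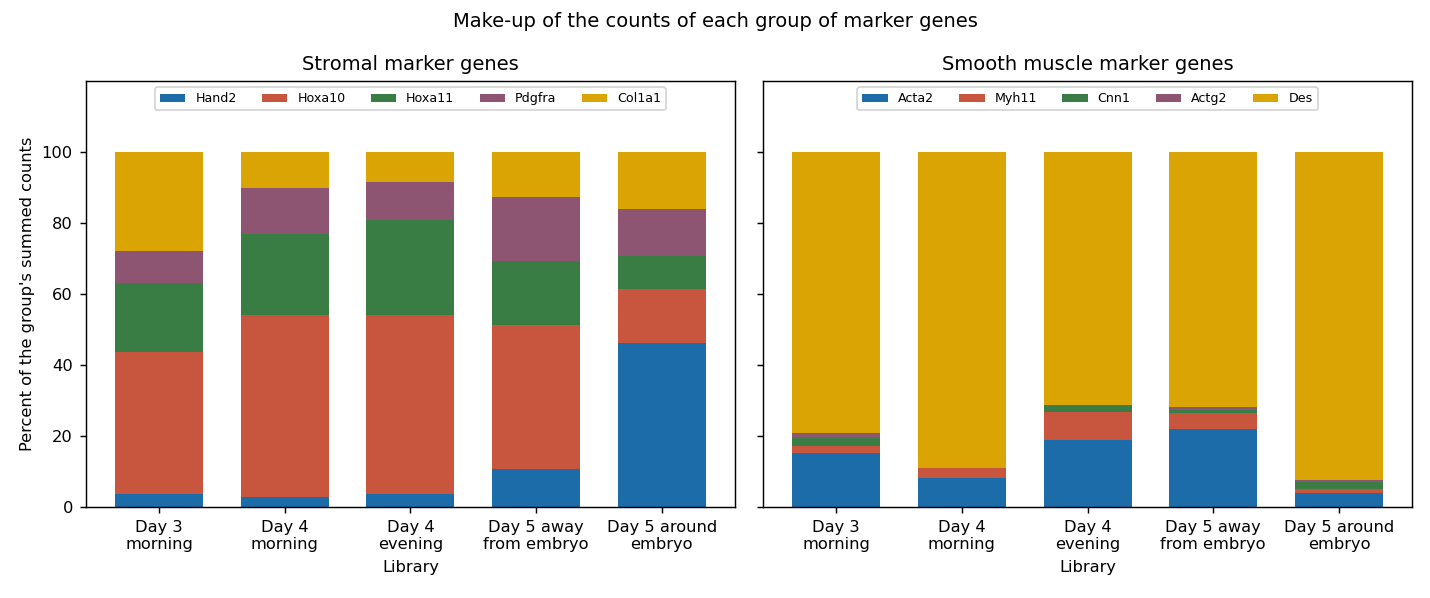
Stacked bars show the percent of each group's summed counts that came from each marker, per library. The blue Hand2 block takes 46.3% of the stromal counts around the embryo, and Des takes at least 71.3% of the smooth muscle counts in all 5 libraries.

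Further genes of both tissues were read to see how far they followed the markers. The 20 other stromal genes, collagens, proteoglycans, transcription factors and Vim, summed to 870.6, 760.3, 842.8 and 775.3 CPM and then to 416.4 around the embryo, 0.537 of the level away from it. Of the 20, 10 were lower beyond 2-fold around against away and 0 were higher, where 15% and 13.4% of tested genes were, and the median log2 change was -0.94. Dcn, the proteoglycan decorin that coats collagen fibrils, had 2033, 1288, 1304, 1709 and 242 counts (log2 -2.70, -2.91 to -2.51). Col3a1, the chain of type III collagen, had 3865, 3153, 3403, 2640 and 729 counts (-1.74, -1.86 to -1.62). Vim, an intermediate filament gene of mesenchymal cells, differed little between these libraries, at 1300 away and 1012 around. Against day 4 evening 7 of the 20 were lower, with 20.7% of tested genes past the same limit, and Twist1 alone was higher (19.1%). The collagen genes were not uniform, since Col5a1 (173 counts away, 155 around), Col6a1 (1412 and 955) and Col6a2 (938 and 760) were within 2-fold in both comparisons.

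The 14 other smooth muscle genes summed to 326.5, 478.6, 322.9 and 282 CPM and then to 995.1 around the embryo. Of the 14, 8 were higher beyond 2-fold around against away and 0 were lower, where 13.4% and 15% of tested genes were, and the median log2 change was 1.49. Of these 8, Lmod1 (0 counts away, 9 around) and Casq2 (0 and 5) were below the filter, which 9 of the 14 genes passed. Tpm1, a tropomyosin made in epithelial and other cells too, gave most of the sum, with 4805, 7148, 3269, 3486 and 12595 counts. Cald1, caldesmon, had 227, 503, 702, 804 and 2296 counts (log2 1.63, 1.51 to 1.75). Myl9, a regulatory myosin light chain, had 144 counts away and 135 around, a log2 change of 0.02 (-0.33 to 0.37). The smooth muscle genes did not move as 1 block. Myocd, the coactivator that drives the contractile program, was at 0 counts in 3 of the 5 libraries.

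**Figure D4:**
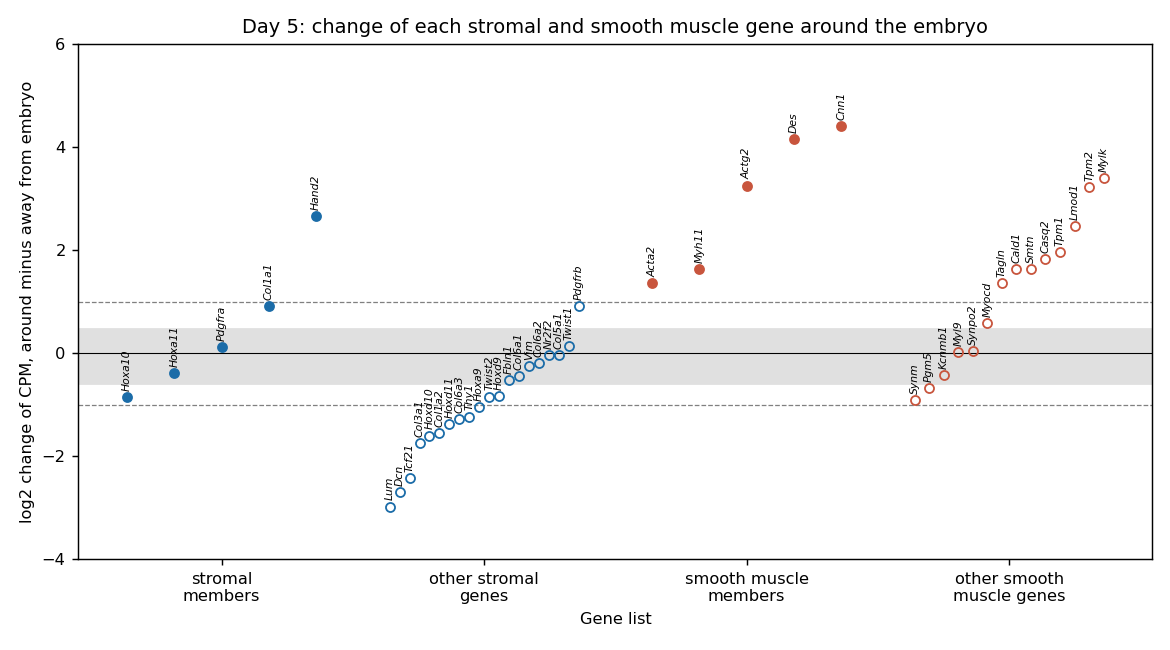
Each point is a gene, placed by its log2 change of CPM around minus away from the embryo on day 5, with markers filled and other genes of the same tissue open. The grey band holds the middle 50% of all tested genes and dashed lines mark 2-fold. Most open blue points (other stromal genes) lie below 0, Hand2 stands above them, and the red smooth muscle genes spread from -0.91 (Synm) to 4.40 (Cnn1).

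Lists of genes of other cells were read beside the markers, and some were higher around the embryo while others were not. Around the embryo, 6 genes of decidual response summed to 1408.7 CPM, against 205.6 away from it and 77.0 to 165.3 earlier. Of these Il11, a cytokine needed for decidualization, had 3, 8, 1, 15 and 10358 counts, and Gja1, the gap junction gene connexin 43, had 927, 1089, 2489, 3626 and 12841. Bmp2, a growth factor of early decidua, had 25, 46, 61, 140 and 720 counts. Il11 and Gja1 carried most of the sum. All 6 were higher beyond 2-fold around against away, where 13.4% of tested genes were. Of the 6, Prl8a2 (0 counts away, 86 around) was below the filter. Wnt4 (433, 61, 25, 48 and 228 counts) and Alpl (220, 178, 39, 6 and 28) nonetheless had their highest counts on day 3. Whether decidual cells account for Hand2 or Des was not tested.

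The 6 genes of the embryo summed to between 4.72 and 12.5 CPM in 4 libraries and to 98.7 around the embryo. Of these, Elf5, Tfap2c and Eomes, trophoblast factors, had counts in every library. Elf5 had 49, 148, 77, 10 and 317 counts, Tfap2c 10, 15, 3, 79 and 673, and Eomes 23, 62, 40, 26 and 609. The defining embryo genes Cdx2, Pou5f1 and Nanog had 0 counts in those 4 libraries and 22, 68 and 10 around the embryo. The part of embryo RNA in the markers' levels was not tested. The 8 endothelial genes went from 15.3 on day 3 through 47.8 away from the embryo to 158.3 CPM around it, where 3 of the 8 were higher (13.4% of tested genes) and 2 lower (15%) than away. Their median log2 change was -0.09, and the sum was carried by Cdh5, the cadherin of endothelial junctions (48, 150, 171, 133 and 1229 counts), and Flt1, a receptor for vascular endothelial growth factor (30, 24, 36, 23 and 996). Emcn, the endothelial sialomucin, went the other way (45, 90, 120, 79 and 27). Their part in the markers' levels was not tested.

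The 5 pericyte genes, markers of the contractile cells on small vessels, summed to between 13.6 and 19.2 CPM in all libraries. Around against away, Notch3 and Kcnj8 were higher beyond 2-fold (2 of 5, against 13.4% of tested genes), Kcnj8 at 49 against 16 counts. Rgs5 was lower (1 of 5, against 15%), at 62 against 159 counts. The 8 epithelial genes were 2.02-fold higher in sum around than away, with 6 of 8 beyond 2-fold (13.4% of tested genes). Among the most abundant, Cldn7 had 12964 counts away and 25779 around, Krt8 8023 and 14092, and Krt18 20293 and 19600. Krt19 had 15033, 13708, 6997, 708 and 2732 counts over the series and Cldn4 2372, 1014, 765, 2646 and 8538. The epithelial sum was thus no fixed yardstick. Against it the stromal markers came to 2.61% of the epithelial RPKM around the embryo and 2.92% away from it. The smooth muscle markers came to 4.61% and 0.585%. Without Hand2 the stromal markers came to 1.07% around and 2.46% away, and without Des the smooth muscle markers came to 0.326% and 0.137%. The 8 leukocyte genes were 0.699 of the level away, with 7 lower beyond 2-fold, where 15% of tested genes were. Cd68 was higher (220 counts away, 670 around), as were 13.4% of tested genes. Of the 7, Cd3e (13 counts away, 3 around) was below the filter. Tyrobp had 257 and 51 counts and Fcer1g 435 and 162.

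**Figure D5:**
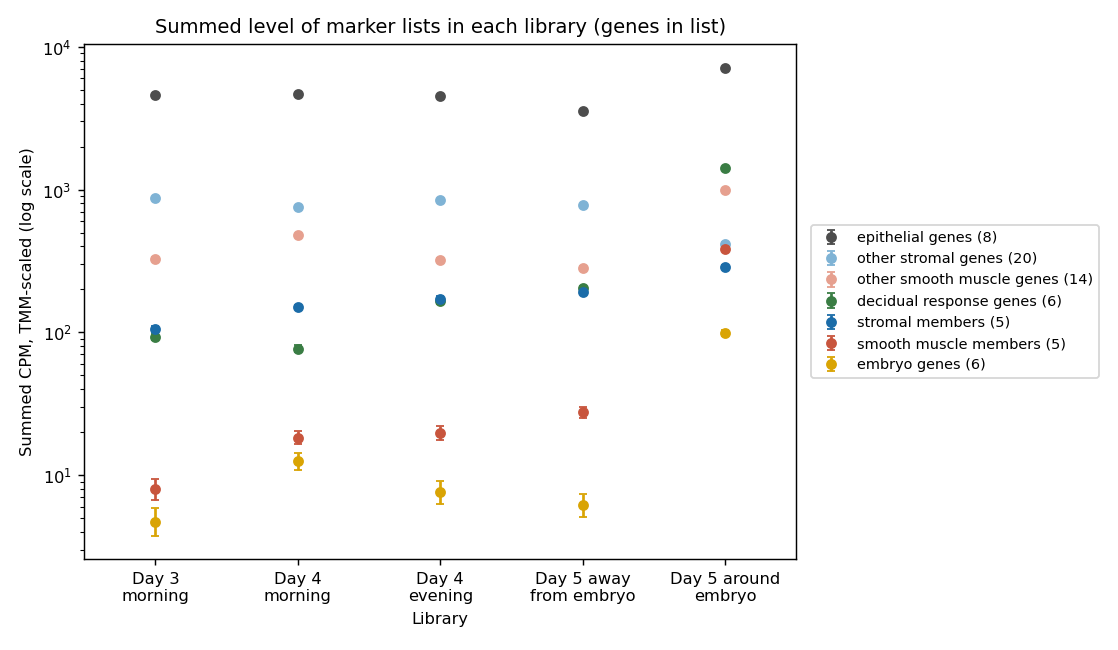
Points show the summed CPM (log scale, TMM-scaled) of each marker list in each library with exact Poisson 95% intervals, and the key gives the number of genes per list. Around the embryo the other stromal genes are at their lowest. Every other list shown is at its highest there, the epithelial genes and the stromal markers included.

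The genes most like each group were found by the root mean square distance between log2 profiles over the 5 libraries, centred on their means, among 8842 other genes with at least 10 CPM on average. Nearest to the median stromal profile were Pxk (distance 0.07), Bri3 (0.07) and Cmip (0.08). Among the markers themselves Pdgfra lay at 0.29 and Hand2 at 1.43. Pxk had 300, 483, 389, 675 and 883 counts. Nearest to the smooth muscle profile, over the 4 markers that passed the filter, were Egflam (0.20), Ier3 (0.23) and Bmp2 (0.30). Of those markers, Cnn1 and Myh11 passed largely through the library around the embryo. Bmp2 reached 10 CPM on average only through that library (1.44, 2.56, 3.86, 7.51 and 41.8 CPM). A shared peak around the embryo was therefore partly set by the filters. Egflam, which encodes the matrix protein pikachurin, had 128, 156, 327, 452 and 2382 counts, and Ier3 had 717, 798, 2050, 1818 and 15950. These distances describe 5 libraries and carry no statement on shared control.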

How the data were processed

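The authors aligned paired-end reads of SMART-seq v.4 libraries to GRCm38/mm10 with HISAT2 and deposited raw counts per gene from featureCounts (Subread 2.0.0). The annotation, strand setting and treatment of multiply mapped reads are not given in the sources used here. From these counts, TMM factors (edgeR 4.0.16) over 5 libraries gave CPM, RPKM (gene lengths of the table) and log2 CPM with a prior count of 2. Genes averaging 1 CPM or more were tested (12915 of 23420) and changes were named beyond 2-fold. The intervals are 95%, exact Poisson for levels and exact Clopper-Pearson for ratios and shares. Where a floor is given for a count of 0, it is 3 counts. Markers and lists were chosen with earlier results of these data known. The named genes are the 10 markers, genes overlapping them, the actin paralogs, the 3 highest by mean RPKM of each list and the 3 nearest profiles per group, and others are named where a count is spelled out. The table lists Cxcl15, Spink1 and Adgre1 as Il8, Spink3 and Emr1. Alternatives were DESeq2 1.42.0 size factors, library totals with and without Rn45s and Lars2, a prior count of 0.5, 4-fold, counting intervals, no filter and a minimum of 5 CPM. Scripts were tested on simulated counts.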

Additional observations from a re-analysis of the deposited data

How the results depend on the processing

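The number of markers beyond 2-fold was recomputed among those that passed the filter. From day 3 to day 4 morning 3 were higher and 1 lower. Library totals, with or without Rn45s and Lars2, gave 1 higher and 2 lower, and 4-fold gave 0 and 0. Intervals that exclude no change gave 2 higher and 0 lower, as did a minimum of 5 CPM, and no filter gave 3 higher and 2 lower. From day 4 morning to evening 3 were higher, but 1 at 4-fold and 1 at a minimum of 5 CPM. Away from the embryo against day 4 evening 1 was higher, but 2 with either library total or no filter and 0 at 4-fold. Around the embryo against day 4 evening 7 were higher and 0 lower, but 4 were higher at 4-fold, 5 at a minimum of 5 CPM and 8 with no filter, and either library total gave 6 higher (without Pdgfra) and 1 (Hoxa10) lower. Around against away 5 were higher and 0 lower, but 3 were higher at 4-fold or a minimum of 5 CPM and 6 with no filter. In this comparison 1 (Hoxa10) was lower with either library total. With library totals the median log2 change of all tested genes was -0.29 (day 4 morning against day 3), 0.23 (away against day 4 evening) and -0.36 (around against away). With TMM these medians were 0.00, 0.01 and -0.05. In the last comparison library totals turned 13.4% higher and 15% lower into 9.97% and 21.7%. The difference between these scalings is that of the TMM factors, and why the factors differed between libraries was not tested. Of the 50 log2 changes, those of Hand2 from day 3 to day 4 morning (0.12 to -0.17), Hoxa10 away against day 4 evening (-0.15 to 0.08) and Pdgfra around against away (0.12 to -0.19) changed sign with library totals, all within 2-fold, and 49 stayed within their interval with DESeq2 size factors, 35 with library totals, 40 without Rn45s and Lars2 and 49 with a prior count of 0.5. No paired analysis was possible because each condition has 1 library, and for the same reason no library could be left out.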

Other observations

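The 5 gland genes summed to 3.80, 5.07, 1.83 and 4.02 CPM in the first 4 libraries and to 13.6 around the embryo, where all 5 were higher beyond 2-fold than away from it (13.4% of tested genes were). The most abundant were Spink3 (17 counts away, 81 around), Prss29 (35 and 74) and Prss28 (21 and 44), and 4 of the 5 passed the filter. Foxa2 had 32, 51, 0, 2 and 21 counts and Il8 had 34, 32, 9, 0 and 14. Their calls thus rest on counts away from the embryo under the floor of 3. Foxa2 was highest on day 4 morning and Il8 on day 3, not around the embryo. The 3 mesothelial genes, markers of the outer uterine surface, were at 0 counts on day 4 morning and at most 4.76 CPM in sum, around the embryo. There Lrrn4 had 77 counts, after 0 in every other library, Upk3b 5 and Msln 0. Upk3b went the other way between the day 5 libraries, with 31, 0, 6, 51 and 5 counts over the series.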
